A study of Oryza sativa Japonica Group with 8 samples.

Results

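The genes described here are the core histone genes of rice (H2A, H2B, H3 and H4) together with the DNA replication and cell cycle genes MCM2 to MCM7, PCNA, the ribonucleotide reductase genes, the B-type cyclins and the CDKB kinases. They were taken from the count and TPM tables by a given list of 41 gene identifiers, out of 55801 genes in all, and 27 of them are histone genes. Leaf RNA of Nipponbare seedlings (Japonica rice) was sequenced after growth from seed on half-strength MS, a mineral salt medium, with carbon dots at 0.56 mg/ml (CD, 2 libraries) or without them (CK, the control, 2 libraries). Carbon dots are fluorescent carbon particles in the nanometre range. Seedling age is 2 weeks in the labels, whereas their treatment text has 3 weeks of growth. The 4 bisulfite samples of the series were not analysed here.

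Core histones form the protein spool on which DNA is wound, and many of their genes are read mainly while DNA is being copied. In that phase the MCM2 to MCM7 ring opens the double helix, PCNA clamps the polymerase to its template, and ribonucleotide reductase supplies the deoxynucleotides. B-type cyclins and CDKB kinases, the latter a class of kinases found in plants, act later, at entry into mitosis. In a grass leaf, division is concentrated at the base of the blade and in the shoot apex, so transcripts of these genes are commonly read as a trace of dividing cells. In bulk leaf RNA, fewer dividing cells and less of these transcripts per cell cannot be told apart. Whether each histone gene listed here follows DNA copying was not tested.

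The CD libraries held 74853055 (replicate 1) and 49281927 counts (replicate 2), and the CK libraries held 80317398 and 60763633. The 41 genes took 0.267% and 0.292% of the counts in the CD libraries and 0.277% and 0.275% in the CK libraries. The libraries differed from each other by more than sampling noise in every pair. A chi-square test of counts gave 85.4 per degree of freedom for the CK pair, 144.4 for the CD pair and 239.0 between CD replicate 1 and CK replicate 1. This statistic grows with depth, and that last pair holds the deepest libraries. Whether replicates were separate plants or cultures is not in the labels. A p-value here therefore reflects the spread among these 4 libraries alone, which may be technical.

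The label could be checked for some of the genes. A reference table of gene names paired 16 of the 41 identifiers with a symbol of the stated kind (4 H2B genes, PCNA, MCM2 to MCM7, 3 B-type cyclins and 2 CDKB genes). The other 25, which are all H2A, H3 and H4 genes, 1 H2B gene and the pair given as ribonucleotide reductase, could not be checked there. They keep the class given with the list and are called by their identifiers. In the authors' table, 8 of the 9 H4 models and 4 of the 6 H3 models have a single exon, all 7 H2A models have 2 exons, and the MCM models have 14 to 18. Coordinates below are those of the authors' count table, whose genome build is not given in the sources used here.

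Among the listed genes that could be tested, the estimated difference between carbon dot and control leaves was under 2-fold. None of the 38 members that passed the filter on low counts was called by edgeR's quasi-likelihood test at an adjusted p of 0.05, where percent called over all 26271 genes tested was 0%. At an unadjusted p under 0.05 there were 0 members, against 8.7% of all genes tested (2286 genes). DESeq2 called 0 members at an adjusted p of 0.05 and 1.95% of all genes (502 of 25761). With limma on TPM values 0 members were called. Its share over all genes is not given here, so that 0 is not read as a result about the members. The log2 fold change, CD minus CK, ran from -0.69 to 0.24 among the 38 members, and 0 exceeded 1 in size, against 7.54% of all genes tested.

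A p above the threshold does not show equality, so the intervals were read too. The 95% interval of the fold change lay within 2-fold in either direction for 37 of 38 members, against 52.2% of all genes tested and 74.5% of the genes with a mean CPM (counts scaled to library size) of 5 or more. That number was 31 without CK replicate 1 and 31 without CK replicate 2. Its exception was LOC_Os03g51200, the least abundant H2A gene that passed the filter, whose interval ran from -1.99 to 0.61 on the log2 scale. At an adjusted p of 0.05, edgeR's quasi-likelihood test called 0 of the 26271 genes tested (lowest adjusted p = 0.46), whatever their difference. The absence of calls among the members therefore sets no limit on their change. The intervals, from 2 libraries a group, also hold changes of well under 2-fold.

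The members' median log2 fold change was -0.08 (9 above 0 and 29 below), and over all genes tested it was 0.01 (51.0% above 0). The sign of the members' median rests on the scaling. With total count scaling, where the median of all genes was 0.11, it was 0.02 with 22 members above 0. With log2(TPM + 1), where the median of all genes was 0.10, it was 0.04 with 24 above 0. Relative to the median of all genes, the members stood at -0.09 in the edgeR fit and at -0.06 on the log2(TPM + 1) scale. Between replicates, the members' median difference (replicate 2 minus replicate 1, log2 CPM) was 0.11 for the CD pair and 0.09 for the CK pair, about the size of these shifts.

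Scaling also decided which genes had groups that did not overlap, with the CD pair wholly above or below the CK pair. By CPM this held for 11 of 38 members (28.9%), 10 of them lower and 1 higher with carbon dots, against 38.4% of all genes tested (20.7% lower and 17.8% higher). By TPM (a per-length scale) it held for 8, of which 7 were higher and 1 lower, against 43.8% of all genes (30.4% higher and 13.4% lower). LOC_Os10g39410, given as H4, was lower and LOC_Os07g36140, given as H2A, was higher on both scales. CYCB1-1 was lower by CPM and higher by TPM. The members' share was below that of all genes on both scales.

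**Figure D1:**
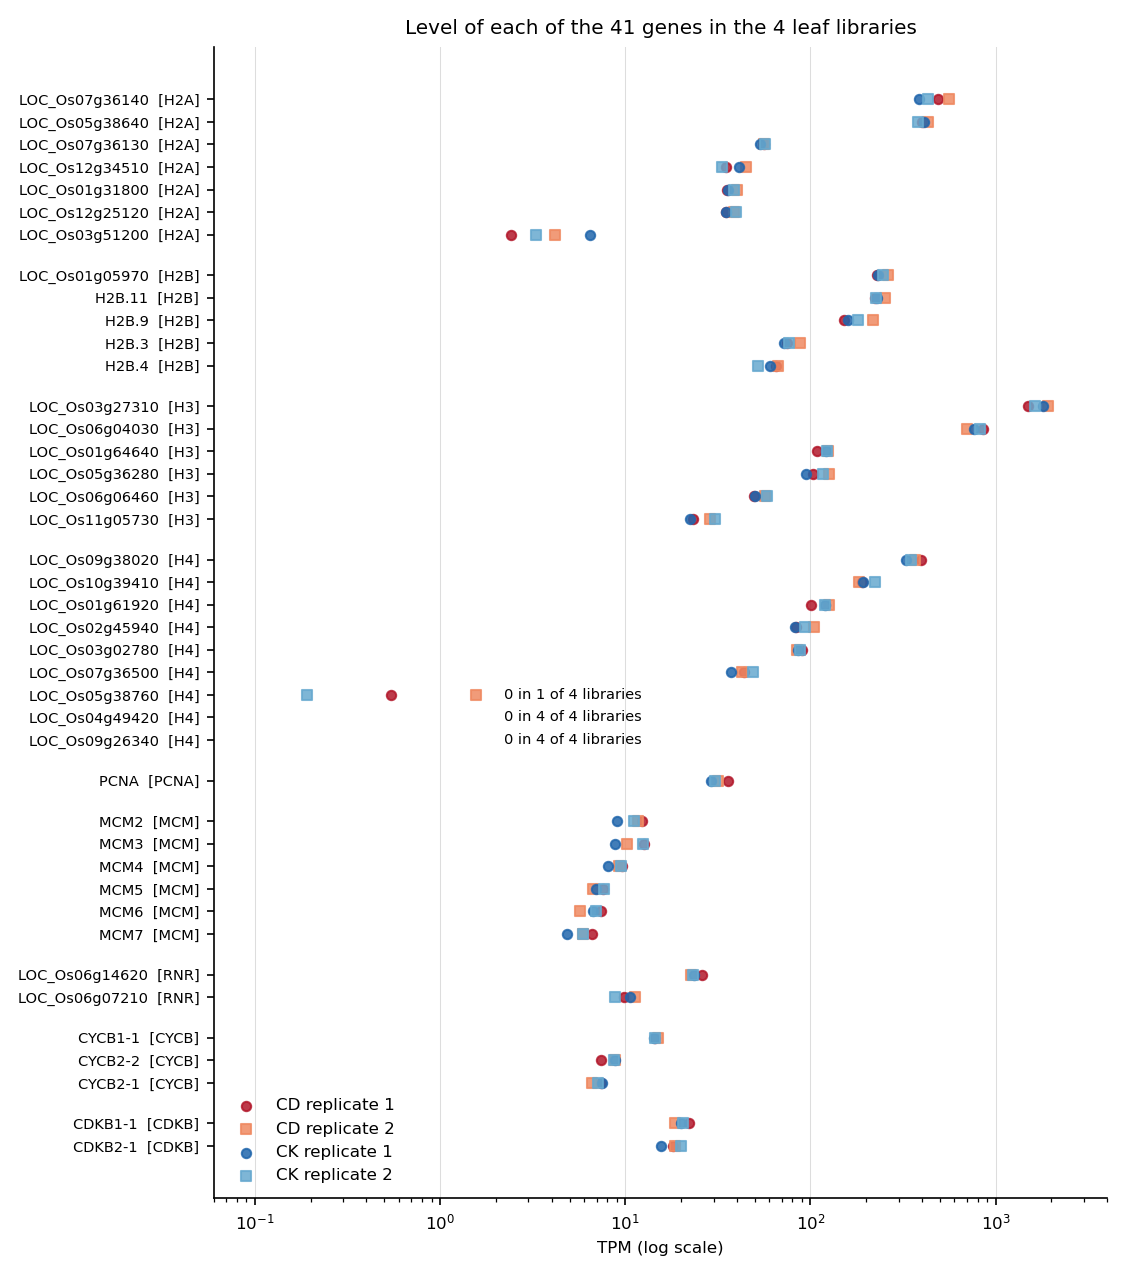
Level of each of the 41 genes in TPM (log axis) in the 4 leaf libraries, grouped by class; genes at 0 are marked in words. The H3 gene LOC_Os03g27310 stands at 1496 to 1915 TPM, and the MCM genes between 4.86 and 12.6 TPM.

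Histone transcripts were abundant in these leaves, and their sum in the control lay between that of the CD libraries. The 27 histone genes added up to 5345 and 5925 TPM in the CD libraries and to 5434 and 5476 TPM in the CK libraries. That is 5635 ± 410 TPM with carbon dots and 5455 ± 29.8 TPM in the control (SD, n = 2). In CPM the sums were 2334 and 2675 against 2667 and 2649, again with the CD libraries on either side. A few genes carried most of each class. The first gene held 60.9% of the H3 sum, 44.6% of the H2A sum, 40.3% of the H4 sum and 30.6% of the H2B sum. LOC_Os03g27310 and LOC_Os06g04030, the H3 models with more than a single exon, held 89.0% of the H3 sum.

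Histone H3 pairs with H4 in the centre of the nucleosome, and its tail carries many of the marks used in chromatin regulation. The 6 genes given as H3 summed to 2639 and 2954 TPM in the CD replicates and to 2862 and 2780 TPM in the CK replicates. LOC_Os03g27310 (chromosome 3, 15645605 to 15648242, plus strand, 5 exons) was the most abundant of all 41 genes. It had 1496 and 1915 TPM in the CD pair (replicates 1 and 2) and 1806 and 1630 TPM in the CK pair. By TPM the CD replicates were its lowest and highest libraries, and by CPM (760.7 and 997.8 against 1010 and 912.1) the groups overlapped with CK replicate 1 highest. Its log2 fold change was -0.13 ± 0.23 (SE, edgeR adjusted p = 0.946), and without CD replicate 1 it was 0.06. The other 5 genes together had 1143 and 1039 TPM with carbon dots and 1057 and 1150 TPM in the control, a sum looked at after the values were seen, and here the groups overlapped too.

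The H3 gene with the largest difference was LOC_Os01g64640 (chromosome 1, 37513746 to 37514564, plus strand, a single exon). Its CPM were 46.2 and 54.6 with carbon dots and 57.2 and 57.5 in the control, and the log2 fold change was -0.19 ± 0.16 (SE, edgeR adjusted p = 0.842). The CD pair lay below the CK pair by CPM, but by TPM they did not (108.2 and 124.9 against 121.9 and 122.4). All 6 H3 genes had an edgeR log2 fold change below 0, from -0.19 to -0.01, and 5 of the 6 with RLE or total count scaling, DESeq2 or TPM.

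Histone H4 is the partner of H3 and among the most conserved proteins known. Of the 9 genes given as H4, 6 passed the filter, and the 9 together had 905 and 912 TPM in the CD replicates and 849 and 926 TPM in the CK replicates. LOC_Os09g38020 (chromosome 9, 21911963 to 21912683, minus strand) led the class. Its TPM were 397.1 and 369.3 with carbon dots and 330.4 and 351.0 in the control. The CD libraries were the higher pair by TPM and overlapped the control by CPM (149.2 and 142.1 against 136.5 and 145.1). The difference on the log2 scale was 0.05 ± 0.15 (SE, edgeR adjusted p = 0.973).

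LOC_Os10g39410 (chromosome 10, 21019255 to 21019903, minus strand) had the lowest unadjusted p of any member, 0.128 by edgeR's quasi-likelihood test (adjusted p = 0.699). It had 64.0 and 63.8 CPM under carbon dots against 71.5 and 83.4 CPM without them. The CD pair lay below the CK pair, with a log2 fold change of -0.28 ± 0.15 (SE). The other 4 tested H4 genes, LOC_Os01g61920, LOC_Os02g45940, LOC_Os03g02780 and LOC_Os07g36500, averaged 43.2 to 116.6 TPM. By edgeR 5 of the 6 H4 genes were below 0, but on the TPM scale 2 of the 6 were.

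Of the genes given as H4, 3 did not pass the filter. LOC_Os05g38760 had 7 and 13 counts in the CD replicates and 0 and 2 in the CK replicates, too few for the test. LOC_Os04g49420 and LOC_Os09g26340 had 0 counts in all 4 libraries. The exons of LOC_Os04g49420 (chromosome 4, 29487977 to 29489558, minus strand) lie in exons of a gene on the opposite strand over 1578 of 1582 bp, and that gene had 485 to 559 counts. The single exon of LOC_Os09g26340 (chromosome 9, 15916005 to 15917026, plus strand) lies wholly in exons of an opposite-strand gene, which had 7 to 106 counts. Whether counting used strand, and how reads in shared exons were treated, is not given in the sources used here, so these zeros cannot be read as a lack of transcript. Near-identical copies within a histone class could also split or lose reads in counting, so the values of single histone genes are uncertain in that respect.

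Histone H2A and H2B form the outer pair of dimers of the nucleosome. The 7 genes given as H2A summed to 1055 and 1175 TPM with carbon dots and to 971 and 987 TPM in the control, and the CD pair was the higher one. In CPM the same sums were 403.9 and 455.1 against 430.7 and 421.7, with the CD libraries at both ends. The leading gene, LOC_Os07g36140 (chromosome 7, 21592648 to 21593290, plus strand), was at 488 and 560 TPM with carbon dots and 386 and 433 TPM in the control. In CPM it had 103.7 and 122.0 against 90.3 and 101.3. This was the one member higher in both CD libraries than in both CK libraries by CPM, and its log2 fold change of 0.24 ± 0.17 (SE) did not pass edgeR's quasi-likelihood test (adjusted p = 0.791).

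The neighbour of LOC_Os07g36140 on the same strand, LOC_Os07g36130, lies 1996 bp away and is also given as H2A, with the same exonic length of 408 bp. It had 56.5 and 56.3 TPM with carbon dots and 53.5 and 57.1 TPM in the control. The ratio of the first gene to the second was 8.63 and 9.95 in the CD libraries and 7.23 and 7.58 in the CK libraries. The ratio was thus higher in both CD libraries, a comparison chosen after the values were seen and not tested.

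LOC_Os03g51200 (chromosome 3, 29291508 to 29292235, plus strand) had the widest range of the tested members. Its counts were 62 and 70 with carbon dots and 179 and 69 in the control. Only CK replicate 1 stood above the rest, and the log2 fold change was -0.69 ± 0.51 (SE, edgeR adjusted p = 0.804). LOC_Os05g38640 was the second H2A gene by level, at 382 to 430 TPM over the 4 libraries, and the remaining 3 genes, LOC_Os01g31800, LOC_Os12g25120 and LOC_Os12g34510, lay between 33.5 and 45.1 TPM. By edgeR 6 of 7 H2A genes were below 0, and on the TPM scale 2 of 7 were.

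The 5 H2B genes summed to 746 and 885 TPM with carbon dots and to 751 and 782 TPM in the control, again with the CD replicates at both ends. LOC_Os01g05970 led with 230 and 262 TPM in the CD replicates and 231 and 247 TPM in the CK replicates. Its log2 fold change was -0.08 ± 0.16 (SE, edgeR adjusted p = 0.956), and it was above 0 on the total count and TPM scales.

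The model of LOC_Os01g05970 may join a pair of genes. It spans 2844429 to 2858134 on chromosome 1, minus strand, with exons of 368 and 537 bp separated by 12801 bp that hold another gene. In the name table, which uses another build, H2B.7 and H2B.6 lie 170164 and 183033 bp from H2B.3, and the exons of LOC_Os01g05970 start 170029 and 183198 bp from it. Its counts may therefore be the sum of both genes.

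H2B.4 (LOC_Os01g05630, chromosome 1, 2686729 to 2687700, plus strand) had 65.5 and 66.8 TPM with carbon dots and 60.4 and 52.2 TPM in the control. By TPM the CD pair was higher, by CPM the groups overlapped, and the log2 fold change was 0.11 ± 0.15 (SE, edgeR adjusted p = 0.927). H2B.3 ranged from 72.4 to 87.9 TPM, H2B.11 from 223 to 252 TPM and H2B.9 from 152 to 217 TPM. Among the H2B genes H2B.9 differed most between the CD replicates, with 152 and 217 TPM in replicates 1 and 2.

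PCNA, the sliding clamp of the replication fork (LOC_Os02g56130, chromosome 2, 34351407 to 34353656, plus strand), had 35.7 and 31.8 TPM with carbon dots and 28.9 and 30.6 TPM in the control. The CD libraries were higher by TPM and overlapped the control by CPM (23.3 and 21.3 against 20.7 and 22.0). The fitted log2 fold change was 0.06 ± 0.16 (SE, edgeR adjusted p = 0.966), and without CD replicate 1 it was -0.01.

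The 6 MCM genes encode the subunits of one ring helicase, and their levels lay within 1.91-fold of each other. MCM2 had the highest mean with 11.1 TPM (range 9.04 to 12.3 over the 4 libraries). MCM3 followed with 11.03 TPM (8.77 to 12.6), MCM4 with 9.11 TPM (8.07 to 9.62), MCM5 with 7.24 TPM (6.72 to 7.64), MCM6 with 6.68 TPM (5.70 to 7.35) and MCM7 with 5.81 TPM (4.86 to 6.60). The ranges of neighbours in this order overlapped, except that MCM5 lay wholly below MCM4.

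MCM2 (LOC_Os11g29380, chromosome 11, 17046948 to 17052915, plus strand) had 12.3 and 11.7 TPM with carbon dots and 9.04 and 11.2 TPM in the control. In CPM the values were 20.6 and 20.1 against 16.7 and 20.7, so that only CK replicate 1 stood low. Its log2 fold change was 0.13 ± 0.18 (SE, edgeR adjusted p = 0.928), and without CK replicate 1 it was -0.02. MCM6 (LOC_Os05g14590, chromosome 5, 8312907 to 8319399, plus strand) lay at the other end of the class. It had 11.4 and 9.06 CPM under carbon dots against 11.4 and 11.9 CPM without them, a log2 fold change of -0.19 ± 0.20 (SE, edgeR adjusted p = 0.895).

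Ribonucleotide reductase was represented by LOC_Os06g14620 and LOC_Os06g07210, both on chromosome 6. LOC_Os06g14620 (8230482 to 8232132, minus strand, a single exon) held 70.3% of the summed level. It had 26.0 and 22.8 TPM with carbon dots and 23.5 and 23.1 TPM in the control, with the CD libraries at both ends, and a log2 fold change of -0.06 ± 0.16 (SE, edgeR adjusted p = 0.970) that was above 0 on the total count and TPM scales. LOC_Os06g07210, with 17 exons, had 9.79 and 11.2 TPM in the CD replicates and 10.5 and 8.77 TPM in the CK replicates, and overlapped as well.

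The 3 B-type cyclins summed to 29.3 and 30.4 TPM with carbon dots and to 30.7 and 30.3 TPM in the control. Those groups overlapped, but in CPM the sums were 29.5 and 31.4 against 33.9 and 33.5, with the CD pair lower. All 3 genes had the CD pair below the CK pair by CPM, against 20.7% of all genes tested. By TPM CYCB1-1 was higher and the other genes overlapped. By edgeR 0 of the 3 were above 0, and on the TPM scale 1 was. CYCB1-1 (LOC_Os01g59120, chromosome 1, 34149431 to 34152417, minus strand), a cyclin of the G2 to mitosis step, had 14.5 and 15.0 TPM with carbon dots and 14.3 and 14.4 TPM in the control. In CPM it had 14.7 and 15.6 against 15.997 and 16.1, so the order of the groups turned with the scale. Its log2 fold change was -0.08 ± 0.16 (SE, edgeR adjusted p = 0.953). CYCB2-2 (LOC_Os06g51110, chromosome 6, 30915029 to 30918862, minus strand) had 7.77 and 9.37 CPM under carbon dots against 10.1 and 10.1 CPM without them. Its log2 fold change was -0.24 ± 0.20 (SE, edgeR adjusted p = 0.842), the largest in size among the 14 replication and cycle genes. CYCB2-1 had 6.96 and 6.43 CPM under carbon dots against 7.82 and 7.40 CPM without them. Its log2 fold change was -0.18 ± 0.20 (SE, edgeR adjusted p = 0.895). In TPM it had 6.63 to 7.52 over the 4 libraries, where the groups overlapped.

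CDKB1-1 (LOC_Os01g67160, chromosome 1, 38981302 to 38984078, minus strand), a kinase partner of mitotic cyclins, had 22.0 and 18.6 TPM with carbon dots and 19.9 and 20.6 TPM in the control. By TPM the CD libraries were its highest and lowest, and by CPM (13.2 and 11.4 against 13.2 and 13.6) CK replicate 2 was the highest. The log2 fold change was -0.12 ± 0.18 (SE, edgeR adjusted p = 0.933). CDKB2-1 had 18.2 and 18.6 TPM with carbon dots and 15.5 and 20.01 TPM in the control, with the CK libraries at both ends.

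**Figure D2:**
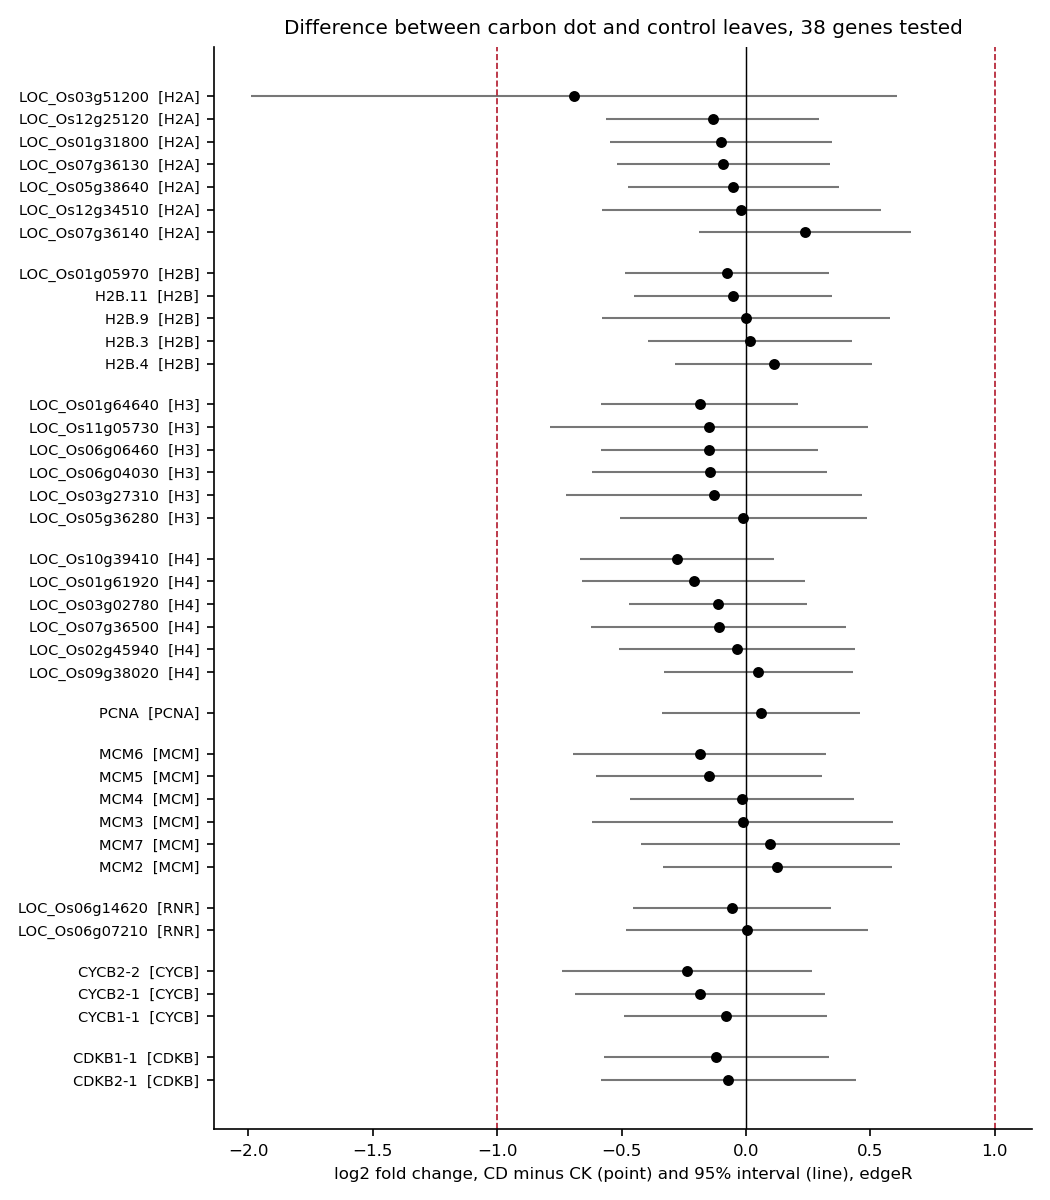
Log2 fold change (CD minus CK, edgeR) of the 38 tested members with 95% intervals, by class; dashed lines mark a 2-fold difference. Intervals reach across 0 for all 38 members and, apart from LOC_Os03g51200, stay within 1 log2 unit of 0.

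The members also varied between replicate libraries. Relative to each gene's mean log2 CPM, the histone genes had a median of -0.15 in CD replicate 1 and of 0.07 in CD replicate 2, while the CK libraries had -0.01 and 0.10. CD replicate 1 was the lowest library for 17 of the 24 tested histone genes by CPM (70.8%, against 29.8% of all genes tested) and for 9 of 24 by TPM. All 7 H2A genes and all 5 H2B genes were higher in CD replicate 2 than in CD replicate 1 by CPM, and 6 and 5 of them by TPM.

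The MCM genes followed another order. All 6 were higher in CD replicate 1 than in CD replicate 2 and higher in CK replicate 2 than in CK replicate 1, by CPM and by TPM. Without CD replicate 1, the median log2 fold change of the histone genes was 0.01 in place of -0.10. Without CD replicate 2 it was -0.20. These values were not tested, since genes are not replicates. Large gaps between replicates were absent among the members: 0 of 38 members were over 2-fold apart within the CD pair, against 13.3% of all genes tested, and 0 of 38 within the CK pair, against 7.72%. The median level was 40.97 TPM for the tested members and 10.6 TPM for the 14 replication and cycle genes, against 11.7 TPM for all genes tested.

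**Figure D3:**
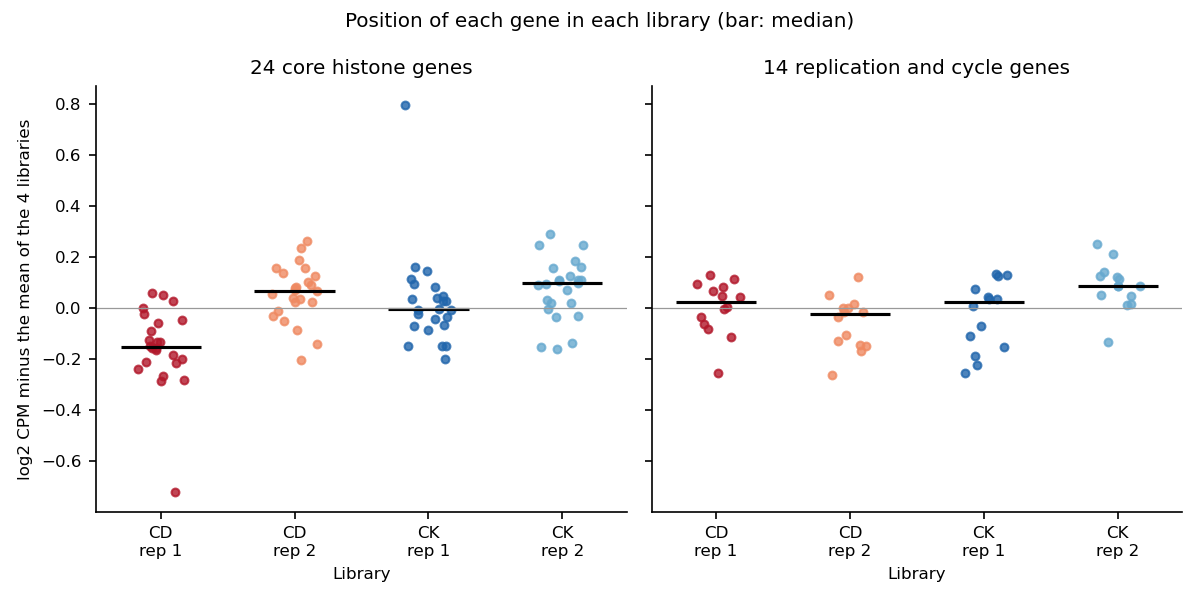
Deviation of each tested gene from its own mean log2 CPM in the 4 libraries, with the 24 histone genes on the left and the 14 replication and cycle genes on the right; bars are medians. Histone genes lie low in CD replicate 1 (median -0.15), and the 2 outlying points at CD replicate 1 and CK replicate 1 belong to LOC_Os03g51200.

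Other genes of the same pathway were read from 6 lists whose 40 genes had a matched name. edgeR and DESeq2 called 0 of the 40 at an adjusted p of 0.05, and at an unadjusted p under 0.05 edgeR had 1 gene and DESeq2 had 2. Their median log2 fold change was 0.02, with 23 above 0 and 17 below. Replication fork genes (polymerase, clamp loader, single-strand binding and flap nuclease genes) had 9 of 10 above 0, against 51.0% of all genes tested, with a median of 0.13. Fork entries without a matched name, among them POLA1, POLE1, LIG1 and TOP2, were left out. CD replicate 1 was the highest library for 7 of the 10 fork genes kept, against 7693 of all 26271 genes tested. The median deviation of these 10 from the gene's mean log2 CPM was 0.17 there and -0.06 in CD replicate 2, while the CK libraries had -0.08 and -0.05. RFC1, a clamp loader subunit, led them with 54.2 and 61.2 CPM under carbon dots against 52.9 and 48.1 CPM without them. RFC1 had a log2 fold change of 0.19 ± 0.15 (SE, edgeR adjusted p = 0.828).

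Origin licensing genes had 4 of 8 above 0. MCM9, a relative of the ring helicase subunits, had a log2 fold change of -0.20 ± 0.15 (SE), and ORC5, a subunit of the origin recognition complex, had 0.65 ± 0.42 on 23 to 55 counts a library (edgeR adjusted p = 0.803 and 0.759). Among the chromatin genes, MSI1, a histone-binding protein of chromatin assembly, had 58.2 and 45.9 CPM under carbon dots against 43.9 and 50.9 CPM without them. CENH3, the centromeric histone H3, had 191 and 66 counts in the CD replicates and 173 and 152 in the CK replicates, so that CD replicate 2 stood low.

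G1 genes and A-type cyclins were also near the control. The G1 list had 4 of 9 above 0 (median -0.04). RBR2, a retinoblastoma-related repressor of cell cycle entry, had 81.0 and 99.8 CPM under carbon dots against 88.6 and 89.0 CPM without them, so the CD libraries lay on both sides. CYCD3-1, a D-type cyclin, had 5.84 and 7.86 CPM under carbon dots against 6.51 and 11.4 CPM without them, where CK replicate 2 stood high. CYCA2-1 had a log2 fold change of 0.00 ± 0.20 (SE). CYCB1-3, a B-type cyclin outside the 41 genes, had 24 and 18 counts with carbon dots and 60 and 32 in the control (edgeR adjusted p = 0.634).

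The cycle inhibitors had the largest median size of log2 fold change of the 6 lists (0.30) and the largest single difference, that of KRP3. EL2, a small inhibitor of cyclin-dependent kinases known in rice as an elicitor-responsive gene, had 72.2 and 48.6 CPM under carbon dots against 23.3 and 38.2 CPM without them. Both CD libraries lay above both CK libraries, with a log2 fold change of 0.98 ± 0.32 (SE), and neither edgeR (adjusted p = 0.518) nor DESeq2 (adjusted p = 0.158) called it. KRP3, a kinase inhibitor named after its values were seen, had 58 and 61 counts with carbon dots and 175 and 98 in the control (log2 fold change -1.02 ± 0.41 SE, edgeR adjusted p = 0.581). The other KRP genes in the list, KRP1, KRP4 and KRP5, were also below 0, so the genes of this list differed in direction.

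Tissue markers were read beside these genes, because the share of dividing tissue in a leaf sample bears on them. Shoot meristem homeobox genes of the KNOX family, which are expressed in the shoot apex, had the fewest counts in the CD libraries for 3 of 4 genes. OSH1 had 0 and 0 counts in the CD libraries and 117 and 42 in the CK libraries, OSH6 had 0 and 0 against 33 and 38, and OSH15 had 10 and 14 against 89 and 54. OSH71 overlapped, with 187 and 75 counts against 165 and 163. Of these 4 genes DESeq2 called 2 lower at an adjusted p of 0.05 (OSH1 and OSH6), against 1.95% of all genes called in either direction. By edgeR 0 were called, against 0% of all genes tested, and 3 had an unadjusted p under 0.05, against 8.7%. OSH1 and OSH6 were near the floor, with means of 0.36 and 0.29 TPM. The list's summed level was 2.50 and 1.77 CPM under carbon dots against 5.20 and 5.09 CPM without them. Their part in the levels of the histone, replication and cycle genes was not tested.

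The libraries had counts for the 2 green leaf markers kept, at unequal levels. The entries RBCS2, RBCS3, RBCS4 and RCA lacked a match in the name table and were left out. The antenna genes CAB1R and CAB2R summed to 298 and 1177 CPM in the CD replicates and to 2568 and 882 CPM in the CK replicates, and CD replicate 1, lowest for most histone genes by CPM, was also the lowest here. Secondary wall cellulose synthase genes summed to 640 and 1321 CPM with carbon dots and to 1124 and 738 CPM in the control, low in CD replicate 1 and CK replicate 2. The root silicon transporter LSI2 was at 0 counts in all 4 libraries. The other root markers, LSI1 and the metal transporter NRAMP5, summed to 29.9 and 37.7 CPM with carbon dots and to 40.9 and 52.8 CPM in the control. The part of these tissues in the levels of the histone and replication genes was not tested.

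**Figure D4:**
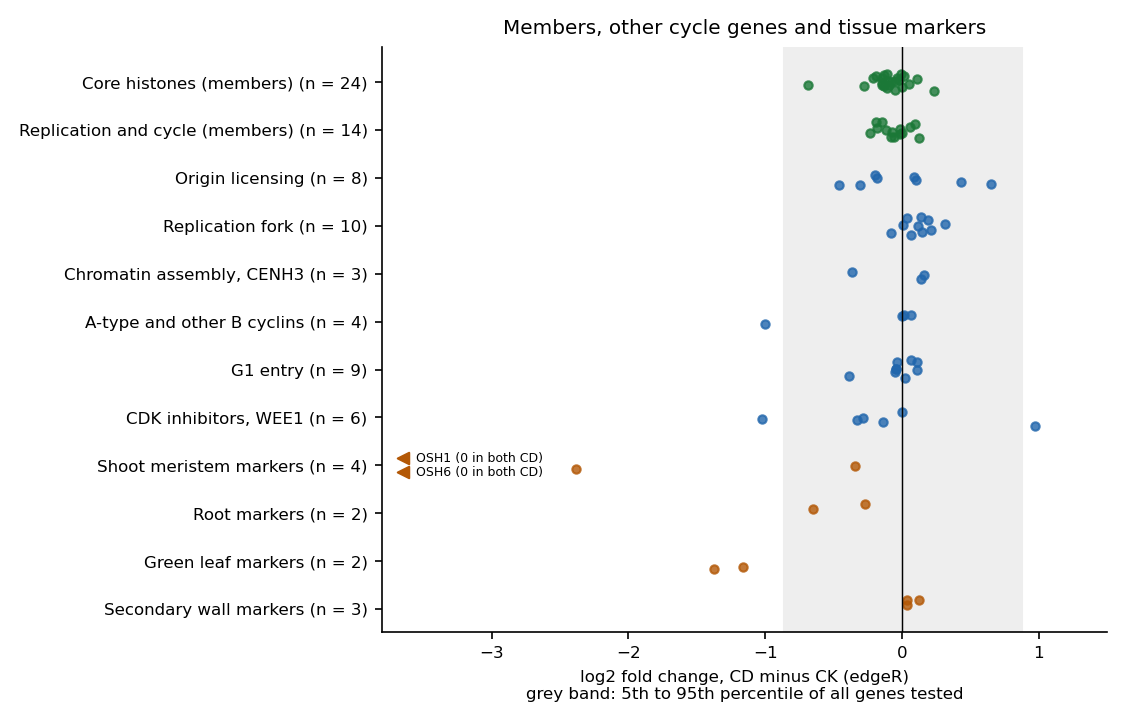
Log2 fold change (CD minus CK, edgeR) of the tested members, the 6 companion lists and the tissue marker lists; the grey band runs from the 5th to the 95th percentile of all genes tested (-0.86 to 0.88), and triangles at the edge mark OSH1 and OSH6, which had 0 counts in both CD libraries and for which no fold change is given. The 38 members lie inside the band, whereas EL2, KRP3, CYCB1-3, OSH15 and the antenna genes lie outside it.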

How the data were processed

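Leaf RNA-seq libraries (2 CD and 2 CK) were analysed from raw read counts per gene, deposited by the authors in a featureCounts layout with no normalization, per the file headers, and from TPM values deposited by the authors. The TPM values equal counts divided by gene length and rescaled, within 1e-05. HISAT2 2.0.5 and featureCounts 1.6.4 are among the tools in the submitters' processing notes, which give no role or order. Neither the genome build nor strand use is given in the sources used here.

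The treatment comparison used edgeR 4.0.16 in R 4.3.3 (TMM, filterByExpr, quasi-likelihood F test, Benjamini-Hochberg adjustment over all 26271 genes tested, threshold 0.05). SE was the fold change over the square root of F, and intervals are 95%. CPM use TMM library sizes. Alternatives were RLE and total count scaling, no filter, DESeq2 1.42.0, limma 3.58.1 with trend on log2(TPM + 1) and log2(TPM + 0.1), a replicate block, and each library left out. A crossed block and the count of intervals within 2-fold were added after the data were seen. Of these fits only the main edgeR fit was tested on simulated counts.

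The members and lists were chosen with earlier results of these data known. Symbols were matched in a RefSeq table (assembly ASM3414082v1, another build, names only) by symbol, chromosome, span within 1.5-fold and start within 5 Mb. Of 69 companion entries 40 matched and of 16 marker entries 12 matched, and only these were kept. Genes given with full values were, in each class or list, the one with the highest mean TPM and the one with the largest fold change (members) or lowest p (lists).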

Additional observations from a re-analysis of the deposited data

How the results depend on the processing

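Over 13 alternatives, 0 members were called at an adjusted p of 0.05 in any. Counts over all genes are given here for some alternatives only, and in the others this 0 is not read as a result about the members. Over all genes, edgeR without the filter called 29 genes (14 higher and 15 lower) and DESeq2 called 502 (199 higher and 303 lower), against 0 by edgeR with the filter, and the cause was not tested. Total count and TPM scaling shifted the log2 fold change by a median over genes of 0.10 to 0.12. The members' median was 0.024 with total count scaling, 0.038 with log2(TPM + 1), 0.039 with log2(TPM + 1) without the filter and 0.039 with log2(TPM + 0.1), whereas with edgeR without the filter it was -0.074. The histone median was 0.026 with log2(TPM + 0.1) and 0.029 with log2(TPM + 1) without the filter. The replication and cycle median was 0.042 with total counts, 0.058 with log2(TPM + 1), with or without the filter, and 0.061 with log2(TPM + 0.1). With each library left out in turn, the medians ran from -0.123 to -0.023 for the members, -0.202 to 0.015 for the histones and -0.131 to -0.027 for the replication and cycle genes (-0.131 without CK replicate 1), and 31 to 37 intervals lay within 2-fold.

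Some small values turned sign. LOC_Os01g05970, LOC_Os06g14620 and CYCB1-1 (LOC_Os01g59120) were at 0.026, 0.050 and 0.023 with total counts, at 0.039, 0.059 and 0.036 with log2(TPM + 1), with or without the filter, and at 0.040, 0.061 and 0.038 with log2(TPM + 0.1). Without CD replicate 1, LOC_Os03g27310 was at 0.055, LOC_Os01g05970 at 0.030, PCNA (LOC_Os02g56130) at -0.0053 and MSI1 (LOC_Os03g43890) at -0.043. Without CD replicate 2, LOC_Os06g14620 was at 0.016, CENH3 (LOC_Os05g41080) at 0.0024, RBR2 (LOC_Os11g32900) at -0.136 and CYCA2-1 (LOC_Os12g31810) at -0.121. Without CK replicate 1, MCM2 (LOC_Os11g29380) was at -0.017. Without CK replicate 2, CYCD3-1 (LOC_Os06g11410) was at 0.076 and CYCA2-1 at -0.037. At the other end of these ranges, LOC_Os03g27310 was at -0.340, LOC_Os01g05970 at -0.194, PCNA at 0.121 and MSI1 at 0.295 without CD replicate 2. LOC_Os06g14620 was at -0.135, CENH3 at -0.875, CYCA2-1 at 0.112 and RBR2 at 0.170 without CD replicate 1. MCM2 was at 0.294 without CK replicate 2, and CYCD3-1 at -0.728 without CK replicate 1.

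Same-numbered libraries did not deviate together (r = -0.14 across 26271 genes, which are not independent replicates), so the replicate numbers are not taken as pairs. With the replicate block, 0 genes and 0 members were called, 1670 genes had an unadjusted p under 0.05, and CYCA2-1 was at -0.0032. The crossed pairing called 0 genes and 0 members, with 2922 genes at an unadjusted p under 0.05 and CYCA2-1 at -0.0026.

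With 2 libraries a group, the 95% intervals of the replication and cycle genes reached up to 0.738 from 0 on the log2 scale. That value is the far end of the interval of CYCB2-2 and not a limit of detection. LOC_Os05g38760 entered the test only without the filter or with some libraries left out, where its adjusted p was 0.515 or more. Where a library is left out, the lone library of its group is assumed to vary like the other group.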
